A study of Mus musculus with 24 samples.

Results

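The 45 genes described here run the cell division cycle and DNA replication: D-type, E-type, A-type and B-type cyclins with their kinases, CDK inhibitors, the RB and E2F families, licensing factors, MCM helicase subunits with PCNA, mitotic kinases and 2 proliferation markers. They were chosen by name, with earlier results of these data known, and all 45 were present among the 53465 genes of the expression table. RNA had been sequenced from differentiating mouse embryonic stem cells. Atf3 knockout (KO) cells of day 0, before differentiation, and of days 3, 6 and 9 were set against wild-type (WT) cells of the same days, with 3 libraries in each of the 8 groups and 24 in all. All cells had been grown in serum with leukaemia inhibitory factor, the GSK3 inhibitor CHIR99021 and the MEK inhibitor PD0325901 before differentiation, and Atf3 was the one altered gene named. The labels call the cell type Mes cells. The labels do not say how differentiation was induced, where Atf3 was edited or whether the KO line is 1 clone. Nor do they say whether each library is its own culture, so p-values measure library spread that may be technical.

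Cyclins bound to cyclin-dependent kinases (CDKs) drive the cell cycle. Cyclin D with CDK4 or CDK6 starts the phosphorylation of RB, which holds back the E2F transcription factors, and cyclin E with CDK2 completes it, so that E2F target genes for DNA replication are transcribed. Mouse embryonic stem cells are known for a short G1 phase, high cyclin E and little D-type cyclin and CDK inhibitor activity, and G1 lengthens as they differentiate.

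Values are FPKM (fragments per kilobase of gene length, scaled by library), which allow levels of different genes to be compared per length. Fold changes are differences of group means of log2(FPKM + 1), given with their standard error, and they understate the change of genes near or under 1 FPKM. Adjusted p-values come from limma with Benjamini-Hochberg adjustment over the 15159 genes that reached 1 FPKM in at least 3 libraries, with a threshold of 0.05. Of the 45 genes, 43 were tested. Cdkn2c, the INK4 inhibitor p18, stayed at or under 0.619 FPKM, which was 1 to 51 recovered reads per library. Rbl2, the RB relative p130, reached at most 1.12 FPKM, which was 9 to 229 recovered reads.

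The libraries held 7855615 to 25274402 recovered reads, with a median of 15611784, and 3 ribosomal RNA-type genes took 4.42% to 45.6% of them. That share was 27.0% to 28.7% in KO and 25.7% to 32.8% in WT libraries of day 0, and 4.92% to 11.5% in KO and 4.42% to 14.9% in WT libraries of day 9. Atf3, the targeted transcription factor gene, averaged 0.172, 0.436, 1.70 and 0.534 FPKM in KO cells on days 0, 3, 6 and 9, against 1.86, 10.4, 15.8 and 15.0 FPKM in WT cells. The KO libraries of day 6 were uneven, with 0.343, 0.578 and 4.17 FPKM in replicates 1, 2 and 3. All KO values lay below all WT values of the same day (exact permutation p = 0.1 on each day, which no 3 against 3 comparison can undercut). The difference passed the limma test on days 3, 6 and 9 but not on day 0. The day 3 call was lost with same-numbered libraries blocked (adjusted p = 0.741) and without KO replicate 1 (0.0802), 2 (0.0897) or 3 (0.0593) or WT replicate 2 (0.153) or 3 (0.106). The summed level of 8 naive stem cell markers was 40.2 to 92.8 FPKM in KO and 53.7 to 73.0 FPKM in WT libraries of day 9. It was 1671 to 1776 FPKM in KO and 1714 to 1756 FPKM in WT libraries of day 0. All 8 averaged at least 1 FPKM in every group. In bulk RNA, fewer cells of a type and less RNA per cell cannot be told apart, and the part of this shift in cell state in the results that follow was not tested.

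By day 9 the helicase loaders Cdc6 and Cdt1, all 8 MCM and fork genes, cyclin E1, E2f1 and the mitotic kinase Plk1 fell in both genotypes, while cyclin D2, the INK4 inhibitors Cdkn2a and Cdkn2b, and Rb1 rose. On day 9 against day 0, 6 of the 43 tested genes rose and 22 fell in KO cells, where 22.4% of all tested genes rose and 22.7% fell. In WT cells 7 rose and 22 fell, where 22.2% of all tested genes rose and 23.8% fell. The median log2 difference of the 43 genes was -0.63 in KO and -0.57 in WT cells, against -0.02 and -0.01 over all tested genes.

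The decline began by day 3 and was as wide in number by day 6 as on day 9. On day 3 against day 0, 4 genes rose and 17 fell in KO cells (all tested genes: 11.9% higher, 16.2% lower), and 3 rose and 16 fell in WT cells (11.4% higher, 14.5% lower). On day 6 against day 0, 5 rose and 22 fell in KO cells (21.4% higher, 22.3% lower), and 5 rose and 22 fell in WT cells (22.5% higher, 25.2% lower). Between neighbouring days, day 6 against day 3 gave 5 higher and 9 lower in KO cells (17.7% higher, 14.9% lower). It gave 6 higher and 10 lower in WT cells (19.5% higher, 19.1% lower). Day 9 against day 6 gave 3 higher and none lower in KO cells, where 6.06% of all tested genes were higher and 2.45% lower. In WT cells the last step gave 2 higher and 1 lower, where 8.15% were higher and 5.13% lower.

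**Figure D1:**
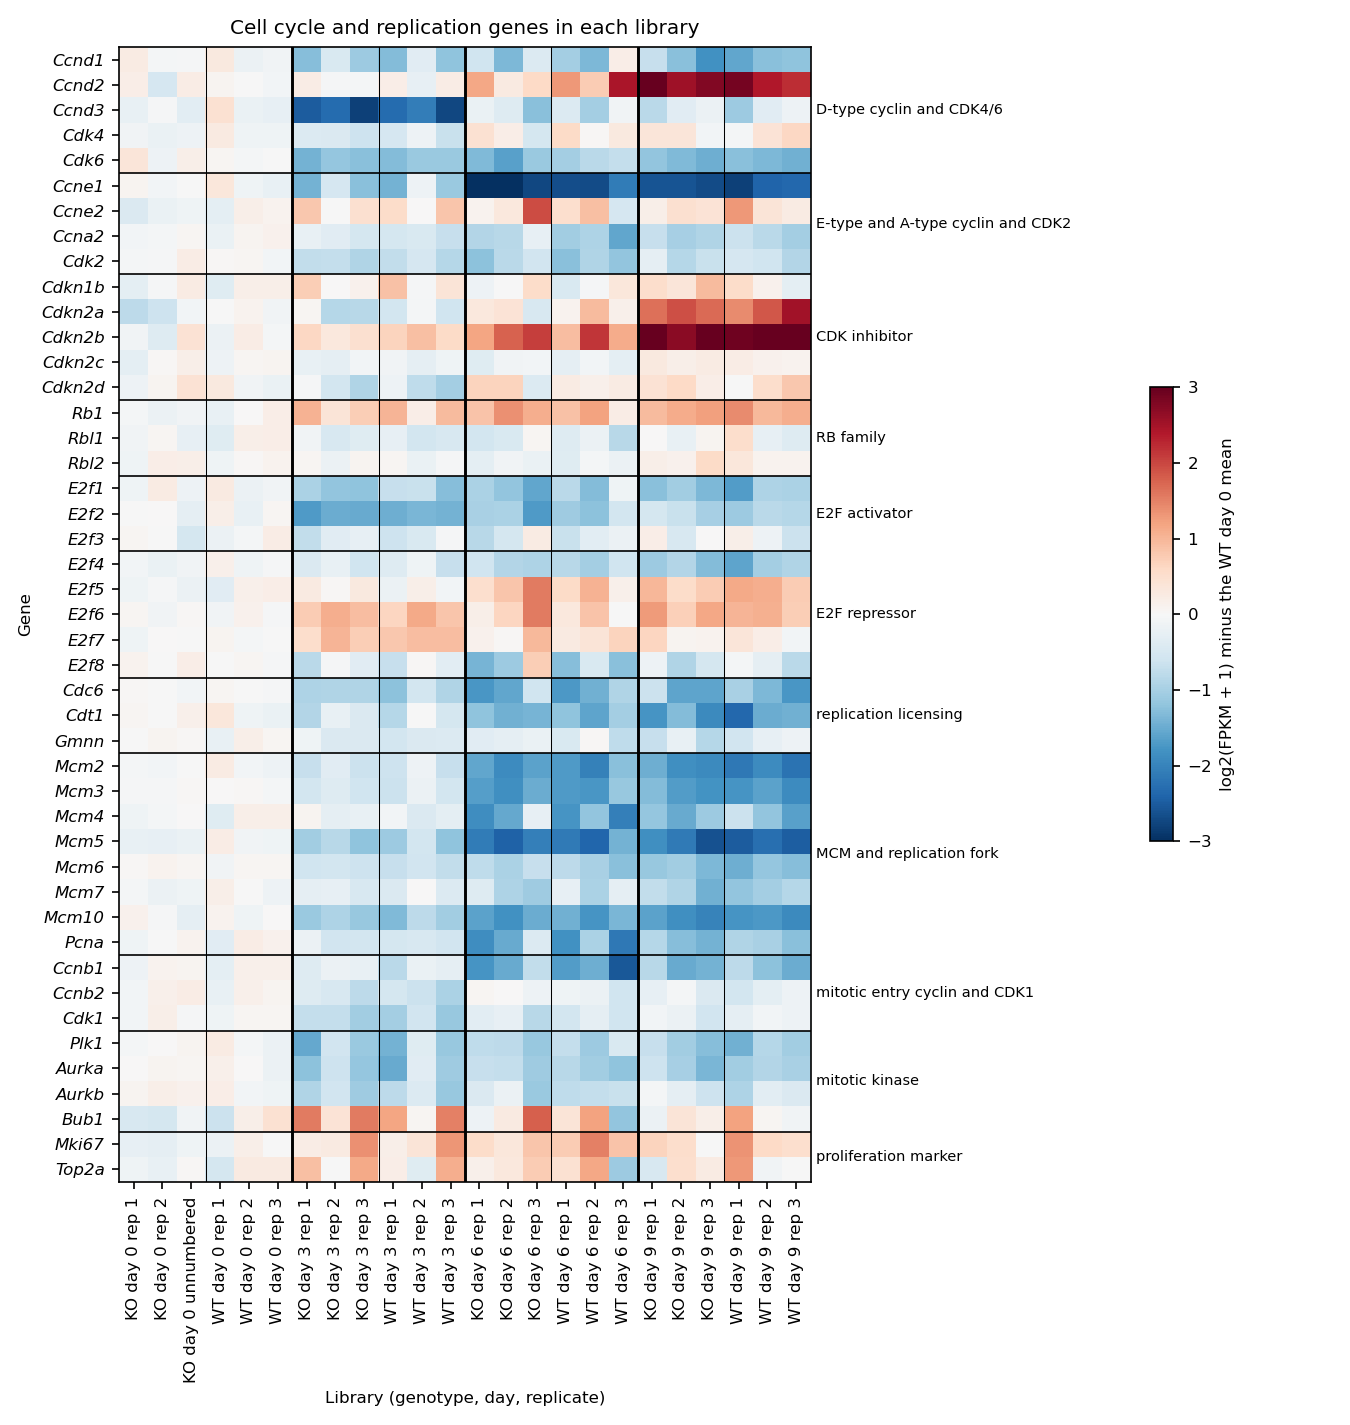
Level of the 45 genes (rows, by role) in each of the 24 libraries (columns, KO left of WT at each day), coloured by log2(FPKM + 1) minus the WT day 0 mean; colours saturate at 3 log2 units on either side. Ccne1, Cdc6, Cdt1 and MCM rows are blue on days 6 and 9 in both genotypes, and Ccnd2, Cdkn2a and Cdkn2b rows are red on day 9.

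These counts depend on how libraries are scaled. As TPM, which gives every library the same total with the ribosomal RNA-type genes included, the median of all tested genes moved by 0.72 in KO and 0.78 in WT cells on day 9 against day 0. The split became 10 higher and 5 lower in KO and 9 higher and 4 lower in WT cells. Of all 15159 tested genes, TPM called 5437 higher and 956 lower in KO and 5923 higher and 897 lower in WT cells. The TPM median was 0.70 in KO and 0.78 in WT cells over all tested genes, and 0.21 and 0.41 over the 43. Of the main calls, 11 in each genotype stood under TPM in the same direction. They were 6 higher and 5 lower in KO, 7 higher and 4 lower in WT. Under equal library sums without the ribosomal RNA-type genes, 7 were higher and 17 lower in KO and 8 higher and 17 lower in WT cells. Over all tested genes equal sums gave 3688 higher and 2855 lower in KO and 3667 higher and 3096 lower in WT cells. On day 6 against day 0, TPM gave 4 higher and 8 lower in KO cells (median of all genes moved by 0.36). In WT cells TPM gave 1 higher and 11 lower. Of all tested genes, 3339 were higher and 1196 lower in KO and 1859 higher and 1695 lower in WT cells. The TPM splits of day 3 were 0 higher and 3 lower in each genotype, and the 3 were Ccnd3, Cdk6 and E2f2. There all tested genes gave 815 higher and 865 lower in KO and 708 higher and 793 lower in WT cells. Equal sums gave 3 higher and 23 lower in KO and 2 higher and 27 lower in WT cells on day 6. Over all tested genes that was 2642 higher and 3779 lower in KO and 2630 higher and 4453 lower in WT cells. On day 3 equal sums gave 1 higher and 11 lower in WT cells (all tested genes: 1811 higher, 1807 lower). Between days 6 and 3, TPM gave 2 higher and 1 lower in KO and 2 higher and 5 lower in WT cells. All tested genes gave 2363 higher and 772 lower in KO and 1205 higher and 876 lower in WT cells. There equal sums gave 2 higher and 11 lower in KO and 2 higher and 15 lower in WT cells. Over all tested genes that was 1901 higher and 3032 lower in KO and 1904 higher and 4025 lower in WT cells. Between days 9 and 6 in WT cells, TPM gave 16 higher and 0 lower (median of all genes moved by 0.81), and equal sums gave 5 higher and 0 lower.

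**Figure D2:**
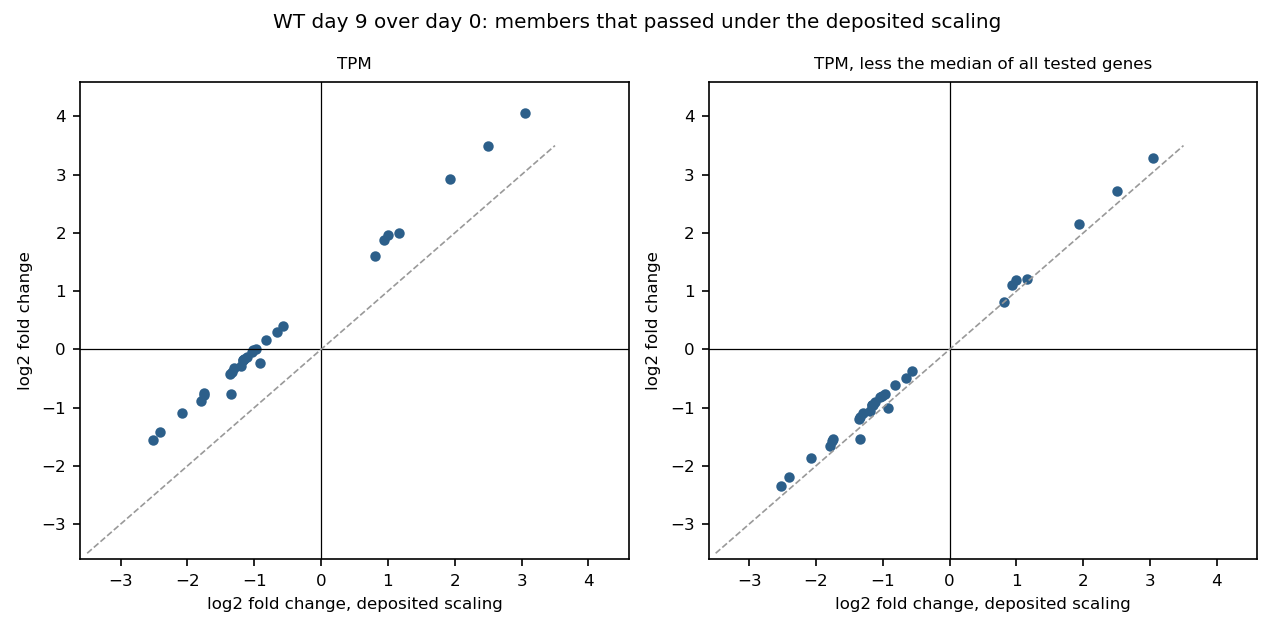
Log2 difference of WT day 9 against day 0 for the genes that passed the test, under TPM (vertical axis) against the deposited scaling (horizontal axis), as computed and after subtracting the median of all tested genes. TPM values lie above the dashed line of equal values in the panel as computed, where 4 genes with small falls cross zero. They lie near that line in the panel where the TPM median of all tested genes is subtracted. TPM rescales each library as a whole, so that subtraction nearly restores the deposited scaling and is no separate check.

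Most day 9 calls held without any single library. Of the 28 day 9 calls in KO cells, E2f2 and Gmnn were lost without KO day 9 replicate 3 (adjusted p up to 0.0703). Of the 29 in WT cells, Mki67 and Aurkb were lost without day 0 replicate 1 (up to 0.164), 2 (0.0741) or 3 (0.0849) or day 9 replicate 1 (0.220), and Aurkb also without day 9 replicate 3 (0.0598). Day 3 calls were less secure. In KO cells 7 of 21 were lost without some library, namely 4, 5 and 4 without day 0 replicate 1, replicate 2 and the library whose column name matches no sample's label, and 5, 1 and 6 without day 3 replicates 1, 2 and 3 (adjusted p up to 0.157). Cdc6 was lost whichever of those 6 was left out. In WT cells 8 of 19 were lost, namely 7, 3 and 3 without day 0 replicates 1, 2 and 3 and 5, 1 and 6 without day 3 replicates 1, 2 and 3 (up to 0.145). Leaving out WT day 0 replicate 1 brought the WT day 3 count to 12. On day 6, 6 of 27 calls in KO cells were lost, 5 of them without day 6 replicate 3 (up to 0.297) and 1 to 3 without each of the others. In WT cells 8 of 27 were lost, 6 without day 0 replicate 1, 5 each without day 6 replicates 1 and 2, and 2 or 3 without each of the others (up to 0.237). The day 6 against day 3 count in KO cells went down to 8 calls without day 6 replicate 2 and up to 21 without replicate 3. The day 9 against day 6 count in WT cells was 9 without day 6 replicate 2.

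The MCM2 to MCM7 proteins form the helicase that is loaded at origins in G1 and unwinds DNA in S phase. Their summed level was 209.9, 251 and 298 FPKM in KO libraries and 223, 226 and 245 FPKM in WT libraries on day 9. It was 686, 697 and 712 FPKM in KO and 705, 734 and 804 FPKM in WT libraries on day 0. The sums of days 0, 3 and 6 did not overlap in either genotype. Day 3 held 455 to 534 in KO and 456 to 607 in WT, and day 6 238 to 297 in KO and 242 to 349 in WT. Days 6 and 9 overlapped in both genotypes.

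Mcm5 lies at chr8:75109569-75128439 on the plus strand (mm10, GENCODE vM21, as for the positions that follow). In KO cells Mcm5 had 181, 178 and 186 FPKM on day 0, 103, 119 and 92.3 on day 3, 48.8, 38.8 and 50.3 on day 6, and 58.4, 47.9 and 34.1 on day 9. In WT cells Mcm5 had 248, 198 and 195 FPKM on day 0, 99.7, 144 and 91.8 on day 3, 48.3, 40.2 and 79.5 on day 6, and 37.0, 43.5 and 37.7 on day 9. Every later library lay below every day 0 library of its genotype, and on day 9 the log2 difference was -1.97 ± 0.23 (adjusted p = 6.36e-07) in KO and -2.40 ± 0.23 (adjusted p = 4.16e-08) in WT cells. Mcm2 had 44.4, 33.7 and 32.2 FPKM in KO and 27.4, 32.7 and 26.1 FPKM in WT cells on day 9. On day 0 Mcm2 had 119, 116 and 123 FPKM in KO and 146, 116 and 112 FPKM in WT cells. Its day 9 difference was -1.69 ± 0.20 (adjusted p = 6.65e-07) in KO and -2.08 ± 0.20 (adjusted p = 4.10e-08) in WT cells. Mcm3 fell by day 9 (-1.58 ± 0.18 in KO, -1.75 ± 0.18 in WT), and so did Mcm6 (-1.24 ± 0.14 and -1.30 ± 0.14 in the same order).

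Mcm10, which is not a helicase subunit and helps to activate the loaded helicase, had 8.39, 7.01 and 6.10 FPKM in KO and 7.37, 7.73 and 6.66 FPKM in WT cells on day 9. On day 0 Mcm10 had 30.2, 26.8 and 22.7 FPKM in KO and 29.97, 25.4 and 27.8 FPKM in WT cells. Its fall was past the threshold from day 3 on: -0.99, -1.57 and -1.76 in KO and -1.05, -1.53 and -1.80 in WT cells on days 3, 6 and 9. Pcna, the sliding clamp of the replication fork, had 32.8, 42.1 and 92.7 FPKM in KO and 34.1, 63.1 and 26.9 FPKM in WT cells on day 6. On day 0 Pcna had 112, 122 and 133 FPKM in KO and 96.7, 143 and 134 FPKM in WT cells. KO replicate 3 of day 6 stood apart at 92.7 FPKM, and the ribosomal RNA-type share of that library was 6.10%, the lowest of the 6 day 6 libraries. The pseudogene Pcna-ps2 averaged 52.6 FPKM over the 24 libraries, so reads shared between the copies could affect Pcna. Mcm4 also had its highest day 6 value in KO replicate 3 (14.2, 18.0 and 45.7 FPKM in KO, 15.2, 23.1 and 12.3 FPKM in WT); its KO day 6 call (-1.15 ± 0.32 against day 0) was lost without KO replicate 1 (adjusted p = 0.0509). Mcm7, whose gene overlaps Cops6 and Ap4m1 on the other strand, averaged 66.1 ± 15.8 FPKM in KO and 65.5 ± 7.55 FPKM in WT cells on day 9 (SD, n = 3 each) and had the smallest fall of the 8 in each genotype (-0.90 in KO, -1.01 in WT).

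All 8 MCM and fork genes fell by day 9 in both genotypes, with a median log2 difference of -1.41 in KO and -1.52 in WT cells. No TPM value of the 8 was above 0, with medians of -0.53 in KO and -0.54 in WT (all tested genes: 0.70 and 0.78). Under TPM the day 9 calls that remained were Mcm5 and Mcm10 in KO and Mcm2 and Mcm5 in WT cells.

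Licensing factors load the helicase. Cdc6, a loader that joins the origin recognition complex, had 14.4, 7.05 and 7.10 FPKM in KO and 11.2, 8.46 and 6.24 FPKM in WT cells on day 9. On day 0 Cdc6 had 23.8, 22.9 and 21.6 FPKM in KO and 24.1, 23.1 and 22.4 FPKM in WT cells. Its day 9 difference was -1.24 ± 0.29 (adjusted p = 0.00135) in KO and -1.36 ± 0.29 (adjusted p = 5.97e-04) in WT cells, which TPM ended (adjusted p = 0.511 and 0.486). Cdt1, its partner in loading, had 18.6, 26.0 and 16.6 FPKM in KO and 12.1, 22.6 and 23.7 FPKM in WT cells on day 9. On day 0 Cdt1 had 68.0, 64.6 and 73.2 FPKM in KO and 82.8, 59.7 and 57.0 FPKM in WT cells. Every day 9 value of Cdt1 lay below every day 0 value, and the difference was -1.72 ± 0.26 (adjusted p = 1.29e-05) in KO and -1.76 ± 0.26 (adjusted p = 1.04e-05) in WT cells. Gmnn, which encodes geminin, the inhibitor of Cdt1, had 22.8, 31.9 and 20.3 FPKM in KO and 24.8, 31.5 and 33.6 FPKM in WT cells on day 9. On day 0 Gmnn had 37.3, 40.2 and 38.5 FPKM in KO and 32.0, 42.7 and 39.0 FPKM in WT cells. It fell in KO cells (-0.63 ± 0.19, adjusted p = 0.0102), which turned to 0.24 under TPM and was lost without day 9 replicate 3 (0.0659), and was at -0.33 ± 0.19 (adjusted p = 0.168) in WT cells. The difference between the genotypes in this change did not pass the interaction test (adjusted p = 1).

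Promoter windows are shown for genes of this group that fell and carry E2F letters, and for Cdkn2b, which rose and carries none. Windows from 250 bases before to 50 after the RefSeq start were given for 35 of the 45 genes on GRCm38.p6 (the sequence of mm10). The E2F letters searched were TTTCCCGC, TTTCGCGC, TTTGCCGC and TTTGGCGC on both strands, and they can overlap one another. They were found in 13 of the 35 genes (37.1%) and in 704 of all 27025 genes with a window (2.61%). Every RefSeq window of Cdc6, Cdk6, Cdkn2c, E2f1 and Mcm7 lay inside the GENCODE span of its gene. Bases before their GENCODE starts were thus not searched. The GENCODE span of Cdc6 is chr11:98907801-98923940 and holds the whole Cdc6 stretch printed below. The 200 bases before the RefSeq start follow, 5′ to 3′ on the gene's strand, with E2F letters in capitals.
Mcm5, chr8:75109309-75109508, plus strand: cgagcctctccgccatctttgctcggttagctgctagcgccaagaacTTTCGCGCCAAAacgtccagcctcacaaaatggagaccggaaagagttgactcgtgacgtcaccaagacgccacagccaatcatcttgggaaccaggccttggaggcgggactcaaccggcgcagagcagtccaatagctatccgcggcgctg
Mcm6, chr1:128359706-128359905, minus strand: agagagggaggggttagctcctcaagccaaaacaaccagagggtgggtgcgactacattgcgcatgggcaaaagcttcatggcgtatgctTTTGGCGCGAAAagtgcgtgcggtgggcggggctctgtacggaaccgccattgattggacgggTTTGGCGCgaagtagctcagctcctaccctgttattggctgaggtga
Cdc6, chr11:98907951-98908150, plus strand: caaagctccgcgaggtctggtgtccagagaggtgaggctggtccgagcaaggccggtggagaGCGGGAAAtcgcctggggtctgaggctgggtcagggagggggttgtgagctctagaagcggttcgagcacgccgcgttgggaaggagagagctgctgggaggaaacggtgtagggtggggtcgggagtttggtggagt
Cdkn2b, chr4:89311033-89311232, minus strand: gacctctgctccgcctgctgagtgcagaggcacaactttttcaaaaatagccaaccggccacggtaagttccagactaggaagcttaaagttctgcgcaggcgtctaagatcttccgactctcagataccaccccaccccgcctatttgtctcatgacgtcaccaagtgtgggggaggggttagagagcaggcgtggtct

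The E2F letters stood in 4 of the 7 MCM and fork genes with a window (Mcm3, Mcm5, Mcm6 and Mcm7) and in both licensing genes with one (Cdc6 and Cdt1). They were in none of 3 D-type cyclin and CDK4/6 genes and none of 3 mitotic kinase genes. Ccne1 and E2f1, which fell, held none in their windows, and neither did Mcm2, Mcm10 and Pcna, while Cdkn2a, which rose, held them. For E2f1 the window lay inside the GENCODE span (chr2:154559407-154569892, minus strand), so its absence says nothing of bases before the GENCODE start. CCAAT (both strands) was in 25 of the 35 genes (71.4%), 7 of 7 among MCM and fork genes, and in 41.1% of all genes. TTTGAA, the CHR letters of mitotic gene promoters, was in 12 of 35 (34.3%) against 20.2% of all genes, and in both proliferation markers. These matches are a description of letters and not of binding.

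Among the D-type cyclins, cyclin D2 rose and cyclin D1 fell by day 9, and cyclin D3 dipped on day 3. Summed over Ccnd1, Ccnd2 and Ccnd3, their level was 56.7 to 67.3 FPKM in KO and 46.7 to 58.3 FPKM in WT libraries of day 9. On day 0 it was 63.9 to 73.8 FPKM in KO and 62.3 to 93.1 FPKM in WT libraries, and on day 3 21.3 to 33.0 FPKM in KO and 21.2 to 36.3 FPKM in WT libraries. Cyclin D2 made up 27.5 to 39.3% of that sum in KO and 21.1 to 42.5% in WT libraries of day 9, against 1.495 to 3.64% in KO and 2.18 to 2.93% in WT libraries of day 0.

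Ccnd2 lies at chr6:127125162-127152193 on the minus strand. In KO cells Ccnd2 had 2.26, 1.02 and 2.32 FPKM on day 0, 2.33, 1.78 and 1.74 on day 3, 5.36, 2.42 and 3.28 on day 6, and 26.5, 15.6 and 18.4 on day 9. In WT cells Ccnd2 had 2.03, 1.82 and 1.70 FPKM on day 0, 2.26, 1.41 and 2.30 on day 3, 6.06, 3.86 and 14.6 on day 6, and 19.8, 14.1 and 12.3 on day 9. Every day 9 library lay above every day 0 and day 3 library, with a log2 difference from day 0 of 2.89 ± 0.33 (adjusted p = 3.54e-07) in KO and 2.50 ± 0.33 (adjusted p = 2.51e-06) in WT cells. On day 6 it had risen in WT cells (1.51 ± 0.33, adjusted p = 7.72e-04) and stood at 0.70 ± 0.33 (adjusted p = 0.0912) in KO cells. The KO minus WT difference of this step was -0.81 ± 0.46 and did not pass the interaction test (adjusted p = 0.957), and WT replicate 3 of day 6 was the high value of its group. From day 6 to day 9 it rose further in KO cells (2.19 ± 0.33, adjusted p = 1.23e-04). The antisense gene Gm43126 overlaps Ccnd2 and averaged 49.2 FPKM in KO and 45.9 FPKM in WT cells on day 9, against 3.46 FPKM in KO and 2.44 FPKM in WT cells on day 0. The strand of counting is not stated, so reads of the pair cannot be told apart.

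Ccnd3 lies at chr17:47505051-47599691 on the plus strand. In KO cells Ccnd3 had 29.6, 33.7 and 27.6 FPKM on day 0, 5.32, 6.22 and 4.102 on day 3, 30.3, 26.3 and 14.1 on day 6, and 19.5, 27.1 and 30.9 on day 9. In WT cells Ccnd3 had 47.9, 29.97 and 29.2 FPKM on day 0, 6.17, 7.56 and 4.42 on day 3, 26.1, 16.6 and 32.1 on day 6, and 15.7, 27.04 and 31.4 on day 9. Cyclin D3 thus dipped on day 3, with all 6 libraries under 8 FPKM and no overlap with any other day. The fall on day 3 was -2.34 ± 0.30 (adjusted p = 5.74e-06) in KO and -2.37 ± 0.30 (adjusted p = 5.18e-06) in WT cells, and the day 6 level was again higher than day 3 by 1.93 and 1.86. On day 9 Ccnd3 differed from day 0 by -0.24 ± 0.30 in KO and -0.53 ± 0.30 in WT cells, neither past the threshold. Both the day 3 fall and the day 6 return held without each single library and under TPM and equal sums. Its annotation overlaps Bysl on the other strand.

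Cyclin D1 had 21.3, 14.0 and 9.25 FPKM in KO and 11.2, 14.0 and 14.5 FPKM in WT cells on day 9. On day 0 Ccnd1 had 41.9, 33.5 and 33.9 FPKM in KO and 43.2, 30.5 and 32.1 FPKM in WT cells. Its fall was -1.30 ± 0.36 (adjusted p = 0.00573) in KO and -1.34 ± 0.36 (adjusted p = 0.00459) in WT cells and ended under TPM (adjusted p = 0.338 in KO, 0.402 in WT). On day 6 it had 22.8, 13.2 and 25.9 FPKM in KO and 16.7, 13.1 and 40.1 FPKM in WT cells, with WT replicate 3 within the range of day 0.

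Cdk6, a catalytic partner of D-type cyclins, had 1.15, 0.943 and 0.761 FPKM in KO and 1.06, 0.921 and 0.803 FPKM in WT cells on day 9. On day 0 Cdk6 had 5.26, 3.41 and 4.53 FPKM in KO and 4.08, 3.71 and 3.89 FPKM in WT cells. It fell by day 3 (-1.40 ± 0.16 in KO, -1.19 ± 0.16 in WT) and was still lower on day 9 (-1.46 ± 0.16, adjusted p = 1.51e-07 and -1.34 ± 0.16, adjusted p = 4.91e-07); under TPM the WT day 9 call was lost (adjusted p = 0.0564). The antisense gene Gm17590 overlaps Cdk6 and averaged 1.32 FPKM over the 24 libraries, close to the later Cdk6 levels. Cdk4, the other partner, was far more abundant per length, at 218, 217 and 159.6 FPKM in KO and 162, 226 and 261 FPKM in WT cells on day 9. On day 0 Cdk4 had 156, 147 and 151 FPKM in KO and 202, 153 and 155 FPKM in WT cells. It passed no test against day 0 under the deposited scaling, and was called higher on day 9 in both genotypes under TPM and equal sums. Of these 5 genes 1 rose and 2 fell by day 9 in each genotype, with a median of -0.24 in KO and -0.53 in WT cells. TPM turned the medians to 0.64 in KO and 0.45 in WT (all tested genes: 0.70 and 0.78).

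**Figure D3:**
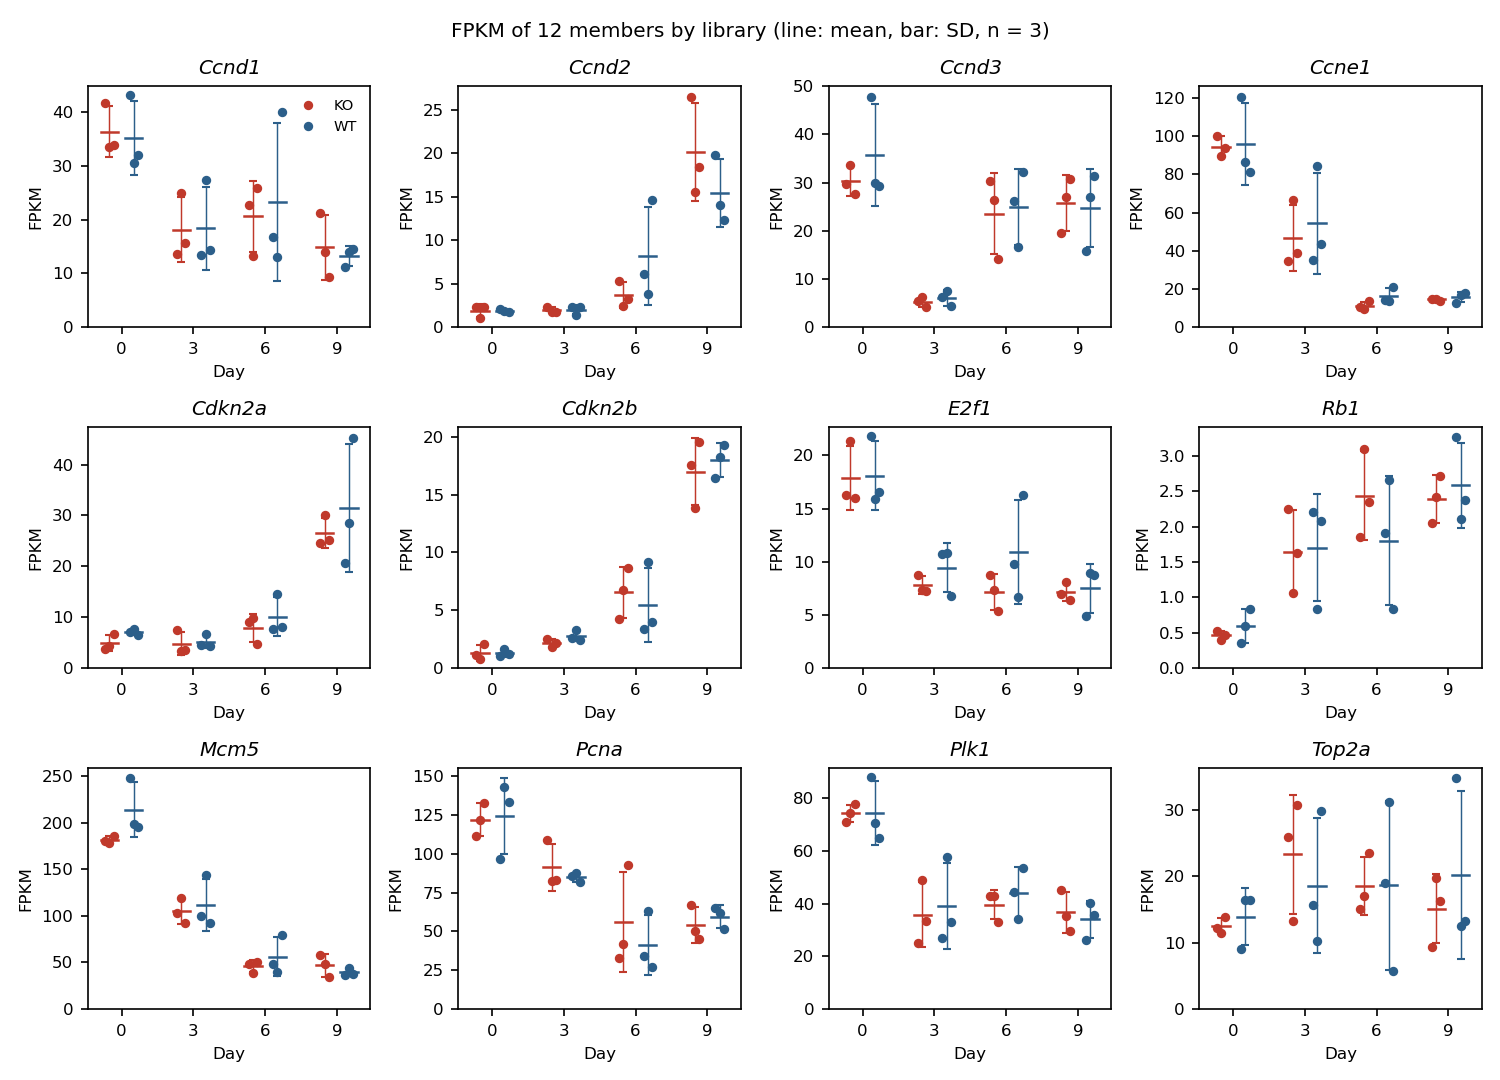
FPKM (linear axis starting at 0) against day of differentiation for 12 genes, 1 point per library, KO left of WT at each day, with a line for the group mean and a bar for the SD (n = 3). Ccnd2, Cdkn2a and Cdkn2b are highest on day 9, Ccnd3 dips on day 3, and Ccne1, E2f1, Mcm5, Pcna and Plk1 are lower on days 6 and 9 than on day 0, with KO and WT points overlapping in most panels.

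Cyclin E1, the activating partner of CDK2, was the most abundant E- or A-type cyclin on day 0. Its gene, Ccne1, lies at chr7:38097984-38107534 on the minus strand. In KO cells Ccne1 had 100.1, 89.4 and 94.0 FPKM on day 0, 34.7, 66.3 and 39.0 on day 3, 10.3, 9.66 and 13.4 on day 6, and 14.8, 14.8 and 13.9 on day 9. In WT cells Ccne1 had 121, 86.3 and 81.1 FPKM on day 0, 35.0, 84.6 and 43.3 on day 3, 14.2, 13.9 and 21.2 on day 6, and 12.7, 17.1 and 17.6 on day 9. All later libraries lay below day 0 in KO cells, and those of days 6 and 9 lay far below it in both genotypes. The log2 difference on day 9 was -2.62 ± 0.28 (adjusted p = 1.25e-07) in KO and -2.52 ± 0.28 (adjusted p = 2.25e-07) in WT cells, and it held under TPM and equal sums. On day 3 the values of replicate 2 were the highest of each genotype, 66.3 FPKM in KO and 84.6 FPKM in WT.

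Cyclin E2 was low, at 1.52, 2.11 and 1.98 FPKM in KO and 4.51, 1.93 and 1.64 FPKM in WT cells on day 9. On day 0 Ccne2 had 0.646, 0.957 and 1.06 FPKM in KO and 0.826, 1.55 and 1.41 FPKM in WT cells. It passed 1 test, KO day 6 against day 0 (1.04 ± 0.41, adjusted p = 0.0429), which was lost without KO day 6 replicate 3 (0.297) and without each day 0 library (0.0680 to 0.118). Ccna2, cyclin A2 of S phase and G2, had 25.2, 20.1 and 21.5 FPKM in KO and 26.1, 23.2 and 19.8 FPKM in WT cells on day 9. On day 0 Ccna2 had 39.1, 39.7 and 43.1 FPKM in KO and 35.6, 43.5 and 45.0 FPKM in WT cells. It fell by day 9, with log2 differences of -0.84 in KO and -0.82 in WT cells, but TPM gave 0.03 and 0.16. Cdk2, the kinase that cyclins E and A activate, fell likewise, with -0.64 in KO and -0.66 in WT cells and TPM values of 0.21 and 0.29. Of the 4 genes 3 fell and none rose by day 9 in each genotype, with medians of -0.74 in both. TPM turned these medians to 0.12 in KO and 0.23 in WT cells (all tested genes: 0.70 and 0.78).

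Of the INK4 inhibitors, which block CDK4 and CDK6, Cdkn2a and Cdkn2b rose by day 9. They are neighbours on the minus strand of chromosome 4, Cdkn2a at chr4:89274471-89294653 and Cdkn2b at chr4:89306299-89311039. In KO cells Cdkn2b, encoding p15, had 1.12, 0.766 and 2.08 FPKM on day 0, 2.53, 1.84 and 2.21 on day 3, 4.24, 6.76 and 8.62 on day 6, and 17.6, 13.8 and 19.6 on day 9. In WT cells Cdkn2b had 1.04, 1.69 and 1.202 FPKM on day 0, 2.63, 3.27 and 2.43 on day 3, 3.34, 9.14 and 3.95 on day 6, and 16.4, 18.3 and 19.3 on day 9. Every day 9 value was above every earlier one, and the log2 difference from day 0 was 2.98 ± 0.27 (adjusted p = 1.71e-08) in KO and 3.05 ± 0.27 (adjusted p = 1.38e-08) in WT cells. It had already risen on day 6 (1.70 ± 0.27, adjusted p = 3.58e-05 in KO, 1.39 ± 0.27, adjusted p = 2.92e-04 in WT), although the WT day 6 call was lost under TPM (adjusted p = 0.0613).

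Cdkn2a, whose row combines the p16 and p19Arf transcripts of the locus, had 3.65, 4.25 and 6.67 FPKM on day 0, 7.47, 3.45 and 3.56 on day 3, 9.06, 9.80 and 4.79 on day 6, and 24.5, 30.01 and 25.2 on day 9 in KO cells. In WT cells Cdkn2a had 7.08, 7.76 and 6.46 FPKM on day 0, 4.53, 6.71 and 4.38 on day 3, 7.72, 14.6 and 8.02 on day 6, and 20.6, 28.5 and 45.2 on day 9. Day 9 stood clear of the other days, with a log2 difference from day 0 of 2.27 ± 0.31 (adjusted p = 4.60e-06) in KO and 1.94 ± 0.31 (adjusted p = 3.15e-05) in WT cells. From day 6 to day 9 the rise was 1.68 ± 0.31 in KO and 1.53 ± 0.31 in WT cells. These day 9 against day 0 calls of Cdkn2a and Cdkn2b held without each single library, under TPM and under equal sums.

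Cdkn2d, encoding p19 of the INK4 family, had 11.6, 13.2 and 9.79 FPKM in KO and 8.24, 12.4 and 15.3 FPKM in WT cells on day 9. On day 0 Cdkn2d had 7.42, 8.90 and 11.6 FPKM in KO and 10.4, 7.77 and 7.19 FPKM in WT cells. It passed no test against day 0. Cdkn1b, encoding the CDK2 inhibitor p27, had 10.1, 8.80 and 13.8 FPKM in KO and 10.3, 7.37 and 5.22 FPKM in WT cells on day 9. On day 0 Cdkn1b had 5.27, 6.49 and 8.15 FPKM in KO and 4.97, 7.68 and 7.71 FPKM in WT cells. It passed none either. Under TPM, Cdkn2d was called higher on day 9 in both genotypes and Cdkn1b in KO cells. In the deposited scaling 2 of the 4 tested inhibitors rose and none fell, with medians of 1.45 in KO and 1.18 in WT cells. TPM raised these medians to 2.35 in KO and 2.16 in WT (all tested genes: 0.70 and 0.78).

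Rb1, the retinoblastoma gene, had 2.05, 2.42 and 2.72 FPKM in KO and 3.27, 2.11 and 2.38 FPKM in WT cells on day 9. On day 0 Rb1 had 0.531, 0.402 and 0.469 FPKM in KO and 0.360, 0.599 and 0.835 FPKM in WT cells. No day 9 value overlapped a day 0 value, and the rise was 1.21 ± 0.24 (adjusted p = 3.83e-04) in KO and 1.16 ± 0.24 (adjusted p = 5.38e-04) in WT cells. Rbl1, encoding the relative p107, stayed between 0.612 and 3.08 FPKM in all libraries and passed no test. The annotation of Rb1 overlaps Rcbtb2, Lpar6 and Gm17233, whose means over the 24 libraries were 3.16, 2.13 and 4.91 FPKM.

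E2f1, an activator that RB restrains, had 6.997, 8.14 and 6.38 FPKM in KO and 4.88, 8.96 and 8.73 FPKM in WT cells on day 9. On day 0 E2f1 had 16.3, 21.3 and 16.0 FPKM in KO and 21.8, 15.9 and 16.6 FPKM in WT cells. It fell by day 9 (-1.20 ± 0.26, adjusted p = 8.13e-04 in KO, -1.19 ± 0.26, adjusted p = 8.82e-04 in WT), which TPM ended (adjusted p = 0.357 and 0.501). E2f2, another activator, was lowest on day 3, with 0.492, 0.737 and 0.689 FPKM in KO and 0.740, 0.855 and 0.813 FPKM in WT cells. On day 0 E2f2 had 3.81, 3.90 and 3.04 FPKM in KO and 4.45, 3.15 and 4.001 FPKM in WT cells. Its day 3 fall, -1.48 ± 0.20 (adjusted p = 9.66e-06) in KO and -1.42 ± 0.20 (adjusted p = 1.59e-05) in WT cells, held under TPM and without each library, whereas the day 9 fall in KO cells (-0.65) was lost without day 9 replicate 3 (adjusted p = 0.0703) and under TPM (0.997). E2f3, the third activator, stayed at 4.03 to 9.74 FPKM over all libraries and passed no test.

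E2F4 to E2F8 act mainly as repressors. E2f4, the E2F with the highest mean over the 24 libraries, had 29.7, 34.8 and 25.6 FPKM in KO and 21.0, 31.2 and 33.8 FPKM in WT cells on day 9. E2f5 averaged 16.7 FPKM in KO and 19.5 FPKM in WT cells that day and exceeded E2f4 in WT replicate 1 (21.4 FPKM). On day 0 E2f4 had 60.6, 56.1 and 59.3 FPKM in KO and 71.6, 59.2 and 63.0 FPKM in WT cells. E2f4 fell (-0.95 ± 0.19 in KO, -1.17 ± 0.19 in WT), which TPM ended (adjusted p = 0.891 and 0.688), while E2f5, which overlaps 1810022K09Rik on the other strand, rose (0.89 ± 0.24 and 1.00 ± 0.24). E2f6, which acts apart from RB, had 9.67, 6.32 and 8.96 FPKM in KO and 8.01, 8.27 and 6.36 FPKM in WT cells on day 9. On day 0 E2f6 had 3.64, 3.10 and 3.56 FPKM in KO and 3.12, 3.86 and 3.35 FPKM in WT cells. It rose (1.05 ± 0.27 and 0.94 ± 0.27). E2f7 was higher on day 3 (0.79 ± 0.21, adjusted p = 0.00843 in KO, 0.88 ± 0.21, adjusted p = 0.00398 in WT), at 3.62, 5.55 and 4.33 FPKM in KO and 4.62, 5.09 and 5.09 FPKM in WT cells, and passed no test against day 0 on days 6 and 9; TPM ended both day 3 calls (adjusted p = 0.187 and 0.210). E2f8, an atypical repressor like E2f7, passed 1 test against day 0, WT day 6 (-0.99 ± 0.39, adjusted p = 0.0430), which was lost without day 6 replicate 1 (0.133) or 3 (0.125) or any day 0 replicate (0.0804 to 0.0937).

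**Figure D4:**
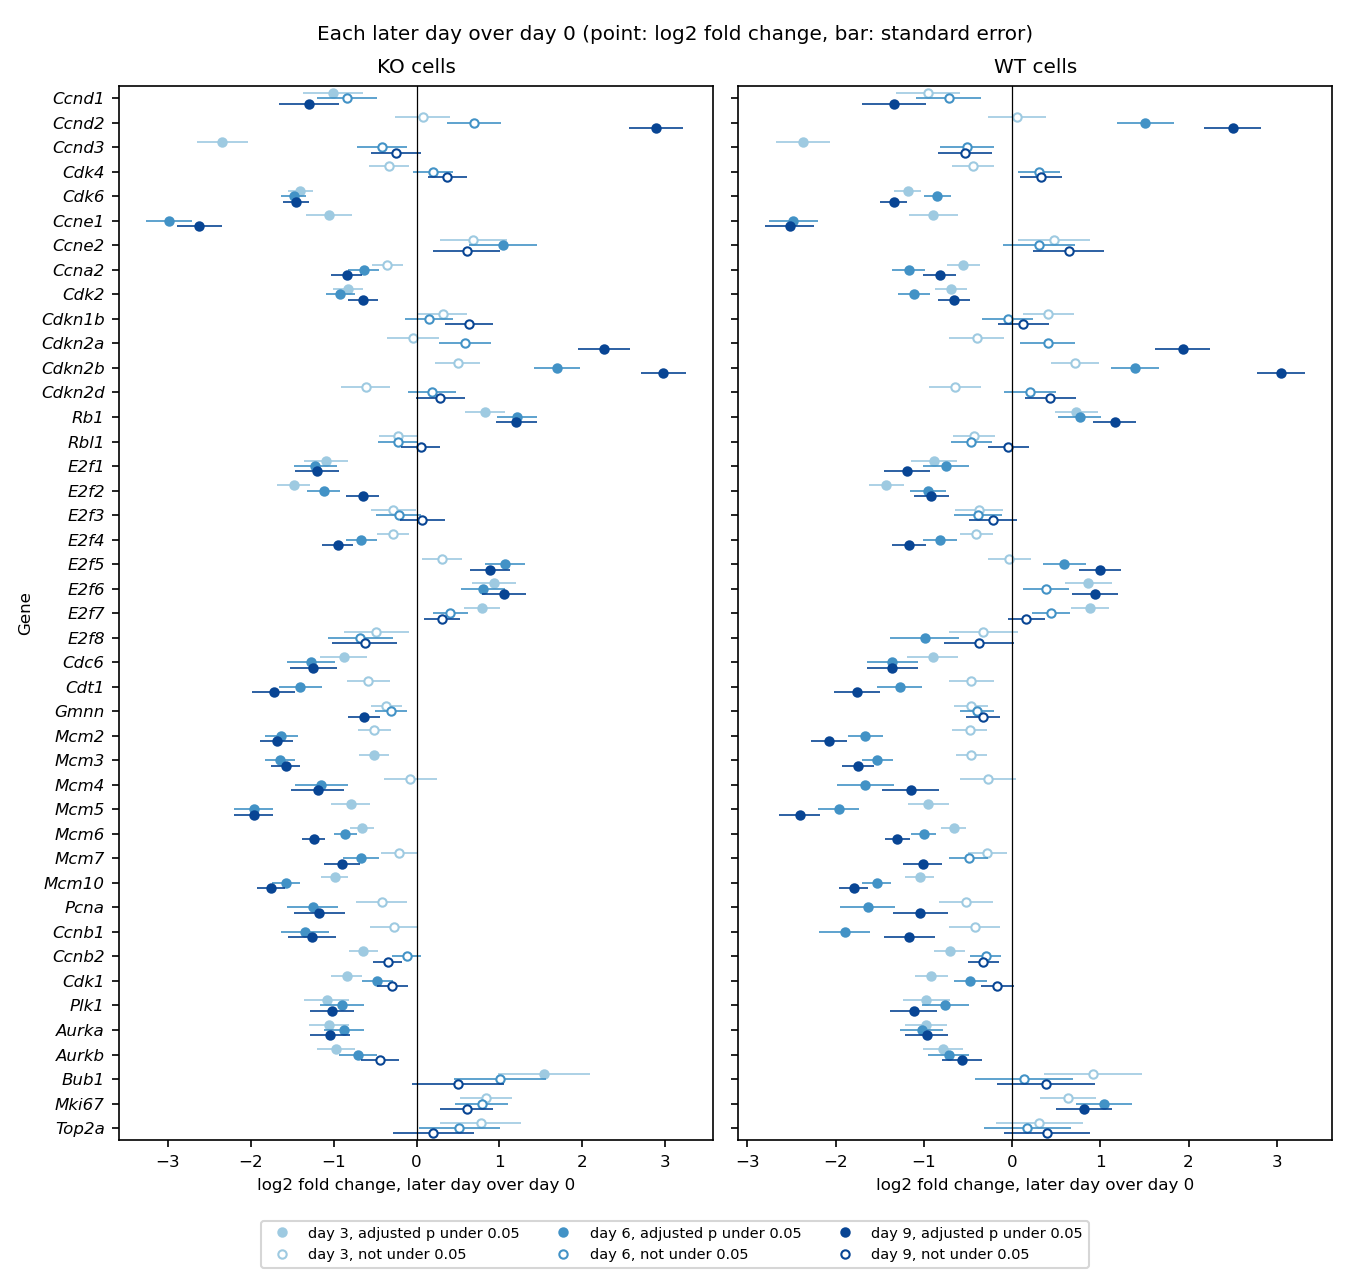
Log2 difference from day 0 of each of the 43 tested genes on days 3, 6 and 9, in KO cells (left panel) and WT cells (right panel), with standard errors as bars and filled points for adjusted p under 0.05. In both panels MCM, licensing and Ccne1 points lie to the left of 0 on days 6 and 9, and Ccnd2, Cdkn2a and Cdkn2b points of day 9 lie to the right by 1.9 or more.

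Among the mitotic entry genes cyclin B1 fell and stayed low, and Cdk1 and cyclin B2 were lower on day 3. Ccnb1, cyclin B1, had 20.5, 24.7 and 43.2 FPKM in KO and 21.9, 25.6 and 11.7 FPKM in WT cells on day 6. On day 0 Ccnb1 had 65.2, 77.6 and 76.5 FPKM in KO and 58.6, 80.8 and 80.5 FPKM in WT cells. It fell by day 6 (-1.35 ± 0.29, adjusted p = 7.18e-04 in KO, -1.90 ± 0.29, adjusted p = 1.89e-05 in WT) and was -1.26 in KO and -1.17 in WT cells on day 9, where TPM ended the call (adjusted p = 0.619 and 0.817), as it did on day 6 in KO cells (0.264). Its partner Cdk1 was lower on day 3 (-0.84 ± 0.19, adjusted p = 0.00182 in KO, -0.92 ± 0.19, adjusted p = 8.87e-04 in WT), with 20.3, 20.4 and 15.9 FPKM in KO and 16.2, 22.4 and 14.8 FPKM in WT cells. On day 0 Cdk1 had 31.9, 38.6 and 33.1 FPKM in KO and 31.1, 35.7 and 35.6 FPKM in WT cells. TPM ended the day 3 calls (adjusted p = 0.392 in KO and 0.276 in WT). On day 6 Cdk1 was still called lower (-0.47 ± 0.19, adjusted p = 0.0461 in KO, -0.47 ± 0.19, adjusted p = 0.0426 in WT), calls that were lost under TPM (0.971 and 0.378) and, in turn, without each of 4 single libraries per genotype (up to 0.214 and 0.121). On day 9 Cdk1 was at 32.3, 29.9 and 22.5 FPKM in KO and 28.0, 32.0 and 30.6 FPKM in WT cells and did not pass. Ccnb2, cyclin B2, was lower too, -0.64 ± 0.17 in KO and -0.71 ± 0.17 in WT cells on day 3, but these calls were lost under TPM (adjusted p = 0.624 in KO and 0.530 in WT) and equal sums (0.0909 and 0.0565). The KO call was also lost with a replicate block across days (0.0688) and without day 3 replicate 3 (0.0591), and Ccnb2 passed no test against day 0 later. The median of the 3 genes on day 9 was -0.34 in KO and -0.33 in WT cells, with 1 of 3 called lower. Under TPM it was 0.55 in KO and 0.66 in WT (all tested genes: 0.70 and 0.78).

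Plk1, the polo-like kinase of mitosis, had 45.0, 35.3 and 29.8 FPKM in KO and 26.4, 40.3 and 35.6 FPKM in WT cells on day 9. On day 0 Plk1 had 71.1, 74.3 and 77.7 FPKM in KO and 88.2, 70.5 and 64.9 FPKM in WT cells. Its fall was -1.02 ± 0.27 (adjusted p = 0.00373) in KO and -1.11 ± 0.27 (adjusted p = 0.00177) in WT cells, which TPM ended (adjusted p = 0.777 and 0.773). Gm44985, which overlaps it, averaged 14.6 FPKM in KO and 13.8 FPKM in WT cells on day 9, against 26.5 FPKM in KO and 27.4 FPKM in WT cells on day 0. Aurka, the spindle pole kinase, fell (-1.04 ± 0.24 in KO, -0.97 ± 0.24 in WT), and TPM gave 0.01 in WT cells. Aurkb, of the chromosomal passenger complex, had 28.5, 24.6 and 18.9 FPKM in KO and 15.1, 23.6 and 21.7 FPKM in WT cells on day 9. On day 0 Aurkb had 31.7, 33.8 and 32.5 FPKM in KO and 34.3, 28.1 and 27.3 FPKM in WT cells. It fell in WT cells (-0.57 ± 0.23, adjusted p = 0.0495; TPM gave 0.41) and was at -0.45 ± 0.23 (adjusted p = 0.123) in KO cells. Bub1, of the spindle checkpoint, averaged 8.15 FPKM on day 3 against 1.98 FPKM on day 0 in KO cells and was called higher (1.54). The call was lost under TPM and equal sums and without each day 0 library or day 3 replicate 1 or 3. WT cells gave no Bub1 call on day 3. On day 6 Bub1 varied widely within groups, with 2.44, 3.61 and 12.1 FPKM in KO and 4.02, 7.79 and 0.685 FPKM in WT cells. The highest over lowest ratio there was 4.97 in KO and 11.4 in WT. WT replicate 3 of day 6, whose ribosomal RNA-type share was 45.6%, held the lowest of these values. For the 4 mitotic kinases the day 9 medians were -0.73 in KO and -0.77 in WT cells, with 2 and 3 of the 4 called lower. TPM turned the medians to 0.15 in KO and 0.21 in WT (all tested genes: 0.70 and 0.78).

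Neither proliferation marker fell by day 9. Top2a, encoding topoisomerase II alpha, had 9.39, 19.6 and 16.2 FPKM in KO and 34.8, 12.4 and 13.3 FPKM in WT cells on day 9. On day 0 Top2a had 12.1, 11.4 and 13.8 FPKM in KO and 8.98, 16.4 and 16.4 FPKM in WT cells. It passed no test. Mki67, encoding Ki-67, had 1.61, 1.38 and 0.654 FPKM in KO and 3.19, 1.499 and 1.35 FPKM in WT cells on day 9. On day 0 Mki67 had 0.402, 0.382 and 0.503 FPKM in KO and 0.475, 0.865 and 0.650 FPKM in WT cells. It was called higher in WT cells on day 6 (1.04 ± 0.32, adjusted p = 0.0109; 0.0584 without day 6 replicate 2) and day 9 (0.81 ± 0.32, adjusted p = 0.0425). The day 9 call was lost without day 9 replicate 1 (0.203) and without each day 0 library (0.0548 to 0.122). Mki67 stood at 0.61 on day 9 in KO cells, which did not pass.

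Between KO and WT cells, none of the 43 genes passed the test at any day. Of all tested genes, 0.0132% passed on day 0, 0.0132% on day 3, 0.726% on day 6 and 0.963% on day 9. At an unadjusted p under 0.05 the 43 genes gave 0, 0, 3 and 0 on days 0, 3, 6 and 9, where all tested genes gave 168, 121, 1516 and 789. The counts of adjusted calls stayed at 0 under voom on the recovered reads, the replicate block within each day, and every other alternative. None of the 43 passed a test of whether the change since day 0 differed between the genotypes on day 3 (0.0132% of all tested genes), day 6 (0.112%) or day 9 (0.264%), or the F test over the 3 days (0.594%). At an unadjusted p under 0.05, 1 passed on day 6 and 1 in the F test, Cdk6 in each case.

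Fold changes ranged from -0.50 (Cdkn2a) to 0.13 (Aurkb) on day 0, from -0.24 (Cdkn2b) to 0.36 (Top2a) on day 3, from -0.84 (Ccnd2) to 0.55 (Ccnb1) on day 6 and from -0.42 (Mki67) to 0.48 (Cdkn1b) on day 9. The 95% interval of a difference had a median half-width of 0.537 log2 units, from 0.296 to 1.16, on every day. The fit estimated the spread of each gene over all 8 groups together, so these intervals do not measure the spread of the day compared. The median highest over lowest ratio within groups was 1.96 in KO and 1.86 in WT cells on day 6. On day 0 it was 1.19 in KO and 1.34 in WT cells. The 95% interval lay within 1 log2 unit on either side of 0 for 39, 41, 32 and 37 of the 43 genes on days 0, 3, 6 and 9. It reached beyond that for the others. TPM moved the median of all tested genes on day 6 by 0.53 in KO over WT.

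The smallest adjusted p was that of Cdk6 on day 6 (0.185), with 0.950, 0.573 and 1.27 FPKM in KO and 1.43, 1.77 and 1.98 FPKM in WT cells, a difference of -0.51 ± 0.16. All KO values were lower than all WT values. Ccne1 on day 6 had 10.3, 9.66 and 13.4 FPKM in KO and 14.2, 13.9 and 21.2 FPKM in WT cells, also without overlap (-0.51 ± 0.28, adjusted p = 0.546). Ccna2 ran the other way, with 21.8, 22.6 and 34.5 FPKM in KO and 19.4, 21.4 and 13.4 FPKM in WT cells (0.51 ± 0.19, adjusted p = 0.327). Ccnd2, with the widest difference, overlapped between the genotypes on day 6 (-0.84 ± 0.33, adjusted p = 0.374). Non-overlapping groups were found for Mcm5 on day 0 and E2f2 on day 3 as well (both lower in KO) and for none of the 43 on day 9. Per direction, 3.40% of all tested genes lay above and 4.11% below WT on day 0, 1.50% and 2.30% on day 3, 4.18% and 3.73% on day 6, and 6.41% and 4.08% on day 9. The 43 genes gave 0 above and 1 below on day 0, 0 and 1 on day 3, 1 and 2 on day 6, and 0 and 0 on day 9.

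**Figure D5:**
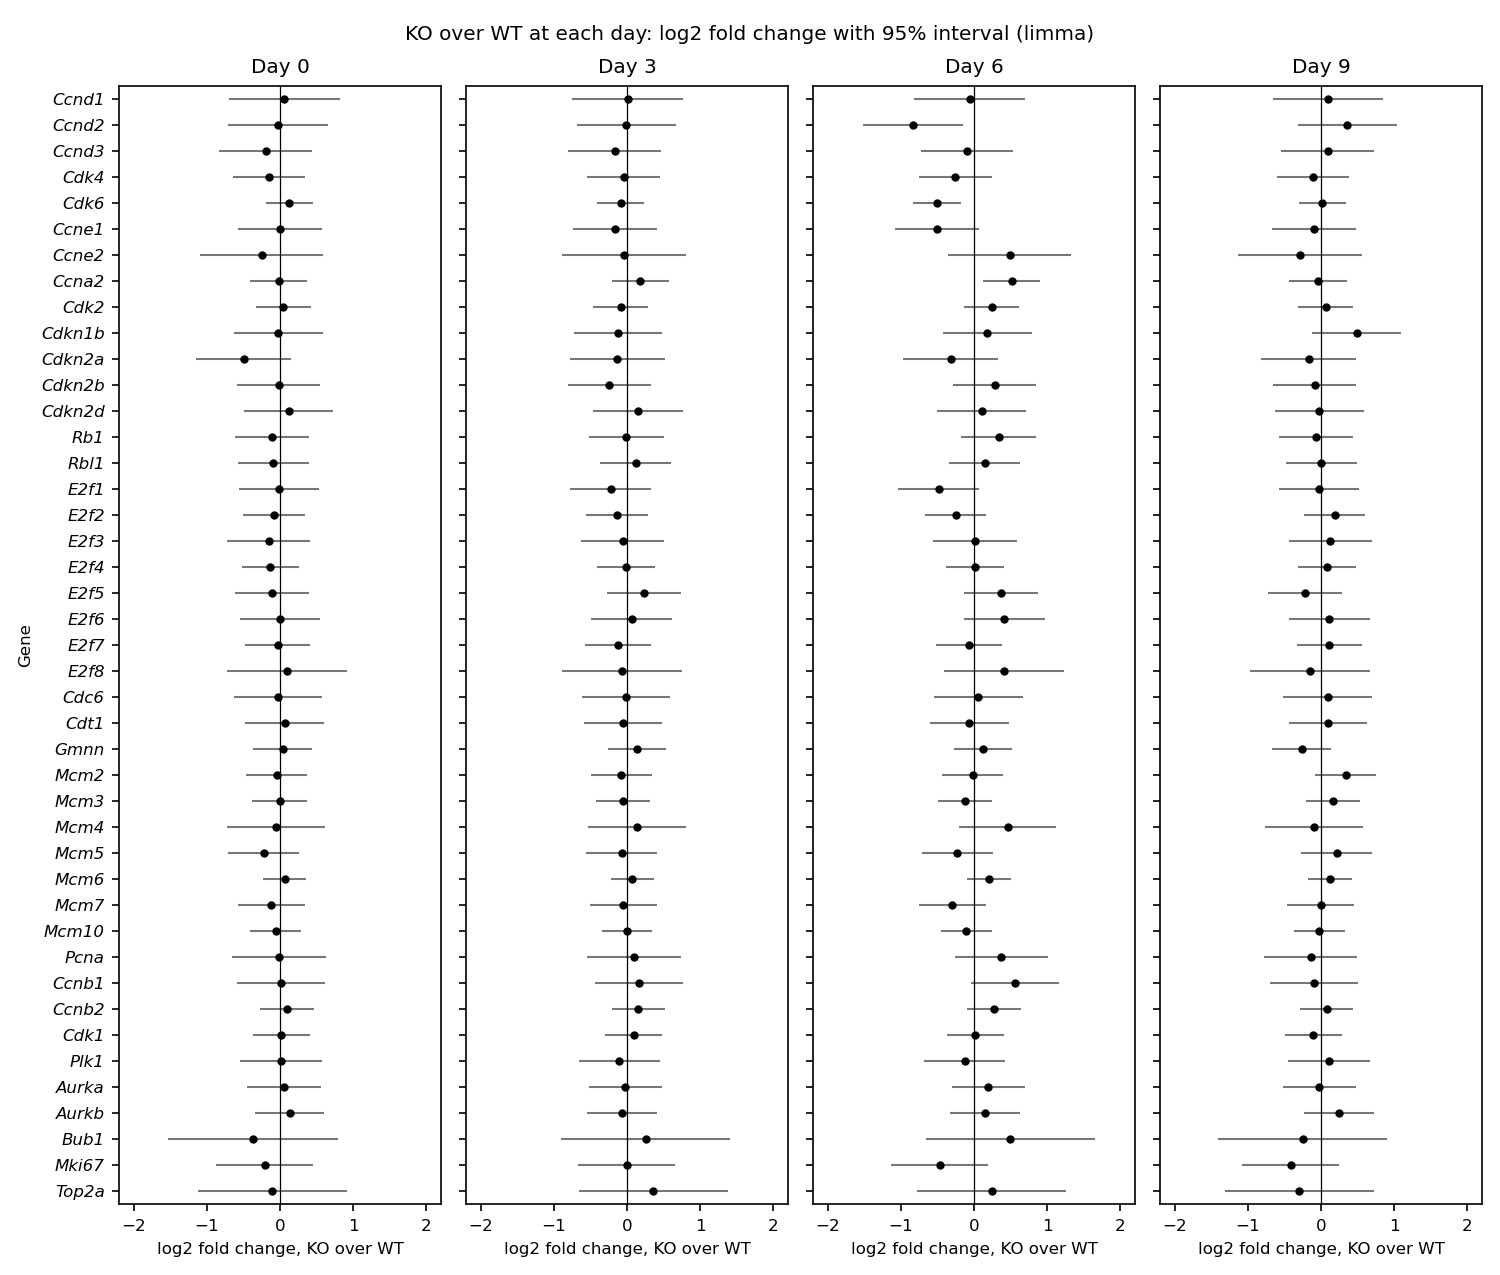
Log2 difference of KO over WT cells for the 43 tested genes on days 0, 3, 6 and 9, 1 panel per day, with 95% intervals. Points lie between -0.84 and 0.55 and no gene passed the test; Bub1 and Top2a have the widest intervals.

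Cell type markers did differ between KO and WT cells on days 6 and 9. On day 6, 4 of 5 tested blood markers and 1 of 5 endothelium markers were higher and 2 of 6 mesoderm markers lower in KO cells. On day 9, 4 of 5 endothelium and 4 of 5 heart muscle markers were higher and 1 of 3 tested trophoblast markers lower. On day 6 the summed level of 6 blood markers was 163 to 2498 FPKM in KO and 23.3 to 86.0 FPKM in WT libraries. The 163 FPKM was that of KO replicate 3, against 2063 and 2498 FPKM in KO replicates 1 and 2. The 5 endothelium markers summed to 6.16 to 12.2 FPKM in KO and 3.08 to 3.93 FPKM in WT, and 6 mesoderm markers to 216 to 351 FPKM in KO and 180.0 to 308 FPKM in WT. On day 9 the endothelium sum was 18.1 to 24.3 FPKM in KO and 7.59 to 8.76 FPKM in WT libraries. The 5 heart muscle markers summed to 274 to 921 FPKM in KO and 76.2 to 127 FPKM in WT. The 5 trophoblast markers summed to 5.32 to 13.1 FPKM in KO and 39.4 to 76.9 FPKM in WT libraries of day 9, with the giant cell marker Prl3d1 at 0 in all 24 libraries. No marker of the blood, endothelium, mesoderm and heart muscle lists was at 0 in all libraries of a day 6 or day 9 group. The part of these markers in the values of the 43 genes was not tested.

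Counts of other genes of the same pathways, from lists compiled with earlier results of these data known, are read against the share of all tested genes on day 9, of which 22.7% fell and 22.4% rose in KO and 23.8% fell and 22.2% rose in WT cells. Of 41 replication initiation and fork genes, all tested, 20 fell and none rose in KO cells and 20 fell and 1 rose in WT cells by day 9. Ticrr, which brings the helicase activator CDC45 to origins, averaged 2.75 ± 0.174 FPKM in KO and 2.59 ± 0.239 FPKM in WT cells on day 9. On day 0 Ticrr averaged 16.9 ± 1.195 FPKM in KO and 17.1 ± 2.40 FPKM in WT cells (SD, n = 3 each). Its log2 difference was -2.25 in KO and -2.33 in WT cells, and Orc1, of the origin recognition complex, gave -2.15 and -2.09. Rpa1, which binds single-stranded DNA, gave -1.69 in KO and -1.75 in WT cells, and Lig1, the ligase of Okazaki fragments, -1.41 and -1.42. Of 8 tested nucleotide supply genes 3 fell and none rose in each genotype. Rrm2, a subunit of ribonucleotide reductase, gave -1.18 in KO and -1.12 in WT cells, and Dut, the dUTPase, -0.83 and -0.91, the WT value turning to 0.07 under TPM. Dctd, a deaminase that feeds thymidylate synthesis, fell in WT cells (-0.91) and stood at -0.32 in KO cells, which did not pass.

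Of 40 tested mitosis and spindle checkpoint genes, 18 fell and 1 rose in KO and 16 fell and 1 rose in WT cells by day 9. The gene that rose was Pttg1 in each, encoding securin, with 14.2 ± 3.98 FPKM in KO and 16.1 ± 4.21 FPKM in WT cells on day 9. On day 0 Pttg1 averaged 3.58 ± 0.701 FPKM in KO and 3.58 ± 0.269 FPKM in WT cells (1.71 in KO, 1.88 in WT). Espl1, encoding separase, which securin holds inactive, fell (-1.78 in KO, -1.97 in WT). Ccnf, encoding cyclin F, gave -1.72 in KO and -1.80 in WT cells, and Nek2, a centrosome kinase, -1.59 and -1.71. Of 16 tested genes of CDK regulation and proteolysis, 7 fell and none rose in KO and 5 fell and 1 rose in WT cells. The CDK-activating phosphatases Cdc25b (-1.14 in KO, -1.18 in WT) and Cdc25a (-1.01 and -1.09) were among those that fell.

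Of 10 tested genes of the MuvB, DP and FOXM1 group, 3 fell and none rose in KO and 4 fell and none rose in WT cells, near the share of all genes that fell in KO. Mybl2, encoding B-MYB, the partner of the MuvB complex at mitotic genes, changed by -3.87 ± 0.34 (adjusted p = 9.81e-09) in KO and -3.79 ± 0.34 (adjusted p = 1.40e-08) in WT cells. It had 9.69, 17.04 and 11.00 FPKM in KO and 9.39, 15.2 and 13.8 FPKM in WT cells on day 9. On day 0 Mybl2 had 190.1, 196 and 189.7 FPKM in KO and 243, 164 and 165 FPKM in WT cells. No tested member of the 43 fell as far by day 9 in either genotype. Tfdp1, the DP1 partner of E2Fs, gave -0.83 in KO and -0.96 in WT cells, with the WT call lost without day 9 replicate 3 (adjusted p = 0.0690) and a WT value of 0.02 under TPM. Of 10 MYC family genes, 1 rose and 1 fell in KO and 1 rose and 3 fell in WT cells, no more than the shares of all genes in KO. Mxd4, an antagonist of MYC, rose in each, with 6.63 ± 0.0352 FPKM in KO and 6.23 ± 1.03 FPKM in WT cells on day 9. On day 0 Mxd4 averaged 0.506 ± 0.181 FPKM in KO and 0.539 ± 0.0686 FPKM in WT cells (2.35 in KO, 2.22 in WT).

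Among 9 other CDK inhibitors and p53 targets, 3 rose and 2 fell in KO and 4 rose and 2 fell in WT cells by day 9. Trp53, encoding p53, fell (-1.43 in KO, -1.69 in WT), and so did Gtse1, a regulator of p53 (-1.82 and -1.75). Over the 7 lists, the WT day 9 calls of Ticrr, Espl1, Pttg1, Mybl2, Mxd4 and Cdkn1c held under TPM, while those of Orc1, Rpa1, Lig1, Rrm2, Dctd, Ccnf, Nek2, Cdc25b, Cdc25a, Gtse1 and Trp53 were lost (adjusted p = 0.0698 to 0.961). The list of other CDK inhibitors and p53 targets held the 1 gene of the 7 lists that passed between KO and WT cells. Of all tested genes, 0.726% passed on day 6 and 0.963% on day 9, so this count is not read as a result about these pathways. Cdkn1c, encoding the CDK inhibitor p57, had 2.06, 2.62 and 2.45 FPKM on day 0, 7.28, 4.95 and 4.67 on day 3, 1.72, 0.770 and 0.584 on day 6, and 2.01, 4.69 and 4.39 on day 9 in KO cells. In WT cells Cdkn1c had 2.52, 1.61 and 1.49 FPKM on day 0, 7.29, 7.91 and 5.55 on day 3, 5.82, 4.76 and 6.64 on day 6, and 7.96, 10.8 and 11.7 on day 9. The genotypes overlapped on days 0 and 3, and all KO values lay below all WT values on days 6 and 9.

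The KO minus WT log2 difference of Cdkn1c was -1.77 ± 0.25 (adjusted p = 7.79e-04) on day 6 and -1.29 ± 0.25 (adjusted p = 0.00800) on day 9. The day 6 call held without each single library, and both calls were lost under TPM (adjusted p = 0.226 on day 6, 0.202 on day 9) and with the spread of the compared groups alone (0.362, 0.360). The day 9 call was also lost with a pseudocount of 0.1 (0.0697) and without KO replicate 1 (0.0768), WT replicate 2 (0.0521) or WT replicate 3 (0.0613). Cdkn1a, encoding p21, a gene named after its values were seen, had 70.6, 69.9 and 111 FPKM in KO and 67.5, 67.0 and 65.1 FPKM in WT cells on day 6. On day 9 it had 92.1, 58.0 and 71.5 FPKM in KO and 72.1, 81.3 and 84.0 FPKM in WT cells, and passed no KO against WT test.

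Spread within groups was largest on day 6, where the highest library of a group exceeded the lowest by a median ratio of 1.96 in KO and 1.86 in WT cells over the 43 genes. The ratio was 1.51 in KO and 1.54 in WT cells on day 9, 1.37 in KO and 1.54 in WT cells on day 3, and 1.19 in KO and 1.34 in WT cells on day 0. KO replicate 3 of day 6 held the highest value of its group for Ccne2, E2f8, Bub1, Mcm4, Pcna and Ccnb1, and also for Atf3. WT replicate 3 of day 6 held the lowest of its group for Ccne2, Bub1, Top2a and Ccnb1. Without replicate 3 of both genotypes, none of the 43 passed between KO and WT cells on day 6, and 26 in KO and 29 in WT cells passed between days 6 and 0.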

How the data were processed

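RNA of 24 mouse embryonic stem cell libraries had been made from poly(A) RNA and sequenced in pairs of reads, per the labels' protocols. The authors deposited 1 table of FPKM values for 53465 genes. The submitters' processing notes name the build mm10 and, with no role or order, HISAT2 2.2.1, featureCounts 2.0.1, R 4.1.0, DESeq2 1.30.1, Trimmomatic 0.39 and FastQC 0.11.9. The sources used here do not state how FPKM was computed or which strand was counted. With GENCODE vM21 exon lengths, available for 53274 genes, 95.5% to 96.9% of values worth at most 50 reads came within 0.05 of a whole read. Library denominators recovered from the FPKM steps matched size factors (median of ratios over 15330 genes) within 0.0481%, so the values carry that scaling.

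Groups followed genotype and day in the labels, and 1 KO day 0 column, whose name ends in 2, matches no sample's label and entered as a library of its group with no number. The KO day 0 sample titled replicate 2 has the column ending in 3. Values were taken as log2(FPKM + 1), and 15159 genes with at least 1 FPKM in at least 3 libraries were kept. A model with 8 group means was fitted in limma 3.58.1 (R 4.3.3) with a trended variance prior (16 residual and 4.018 prior degrees of freedom) and checked on simulated data. Contrasts were KO against WT at each day, days against day 0 and against the day before within genotype, and the difference of the change since day 0 between genotypes. Adjusted p-values are Benjamini-Hochberg over all tested genes. Summaries used Python 3.11.15 with pandas 2.3.3, numpy 2.4.6 and scipy 1.17.1, and plots matplotlib 3.10.9.

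The alternatives were a pseudocount of 0.1, no filter, a mean of at least 5 FPKM, TPM, equal sums without Gm42418, CT010467.1 and Gm23935, limma-voom on the recovered reads, the compared groups only, replicate blocks, each library left out, and day 6 replicate 3 of both genotypes left out. Voom on recovered reads called 52 of 15144 genes between KO and WT on day 6 and 119 on day 9. Same-numbered KO and WT libraries deviated together on day 3 (correlations 0.655, 0.614 and 0.599). They did not on day 0 (0.120 and -0.106 by titles, 0.120, 0.262 and 0.046 by the numbers that end the column names), day 6 (0.265, -0.259, -0.467) or day 9 (0.196, 0.179, -0.459). The titles number the replicates and state no pairing. Ribosomal RNA-type shares of day 3 replicates 1, 2 and 3 rose in the same order, 15.4%, 25.0% and 27.9% in KO. In WT they were 15.3%, 33.0% and 35.2%. Whether the numbers mark pairs was not tested, and the main fit used none. Genes shown with every library value were those with the largest change or the highest level in each role class, and other lists name up to 4 genes of largest change. Further genes were named by range, count or as partners of these. The members and lists were chosen with earlier results of these data known. Promoter windows are from RefSeq on GRCm38.p6, and overlaps from GENCODE vM21 on mm10.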

Additional observations from a re-analysis of the deposited data

How the results depend on the processing

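Among the 43 genes no call between KO and WT cells or in the change since day 0 between genotypes appeared under any alternative. Over the 187 calls within genotypes, 2683 alternative values were computed, of which 2295 kept direction and threshold, 380 kept direction only and 8 reversed, all 8 under TPM. After subtracting the TPM median of all tested genes, 0 of the 187 changed sign under TPM. TPM rescales each library as a whole, so this subtraction nearly restores the deposited scaling and is no separate check of the calls. TPM gave 3, 12 and 15 calls in KO and 3, 12 and 13 in WT cells on days 3, 6 and 9 against day 0. Over all tested genes it gave 1680, 4535 and 6393 in KO and 1501, 3554 and 6820 in WT cells. Between days 6 and 3, TPM called 3 of the 43 in KO and 7 in WT cells (all tested genes: 3135 and 2081). Between days 9 and 6 it called 16 in WT cells (all tested genes: 4733). Of the day 9 against day 0 calls of the 43 genes, 11 in each genotype were calls in the deposited scaling too. So were 2 of the 16 in WT between days 9 and 6. Equal sums gave 12 in WT on day 3 and 5 in WT between days 9 and 6 (all tested genes: 3618 and 2546). No filter gave 5 in KO between days 9 and 6. With the spread of the compared groups only, counts were 8 in KO and 9 in WT between days 6 and 3 and 1 in KO and 0 in WT between days 9 and 6. The cause of these shifts was not tested, beyond the move of the median of all genes under TPM.

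Reversed values on day 9 against day 0 under TPM were 0.033 for Ccna2, 0.21 for Cdk2 and 0.24 for Gmnn in KO cells. In WT cells they were 0.013 for Aurka, 0.16 for Ccna2, 0.29 for Cdk2, 0.41 for Aurkb, 0.068 for Dut, 0.19 for Wee1, 0.024 for Tfdp1, 0.27 for Rbbp4, 0.41 for Foxm1, 0.26 for Mnt and 0.50 for Max. Cdk6 in WT cells between days 9 and 6 gave 0.12.

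Atf3 on day 3 lost its call under TPM (-2.90, adjusted p = 0.752), with the compared groups only (-2.88, 0.622) and with a replicate block within each day (-2.88, 0.741). On day 6 it lost it under TPM (-2.38, 0.175) and with the compared groups only (-2.84, 0.799). With a replicate block across days, 14, 21 and 27 calls were made in KO and 17, 25 and 28 in WT cells on days 3, 6 and 9, and no member call between KO and WT changed.

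Leaving out 1 library gave 15 to 22, 24 to 26 and 26 to 28 calls in KO and 12 to 21, 22 to 26 and 27 to 29 in WT cells on days 3, 6 and 9 against day 0. It gave 8 to 21 in KO and 12 to 15 in WT between days 6 and 3, and 3 in KO and 2 to 9 in WT between days 9 and 6. Atf3 ranged from -1.41 to -0.95 on day 0, -3.28 to -2.55 on day 3, -3.45 to -2.48 on day 6 and -3.47 to -3.30 on day 9. Cdkn2c and Rbl2 did not reach the level filter, and Cdkn2c had 1 to 51 recovered reads per library.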
